A study of Homo sapiens with 6 samples.

Results

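ATP-binding cassette (ABC) transporters were examined as a family in 2 ovarian cancer cell lines, S116D and S116A. Members were all probe sets annotated to a single gene whose symbol is ABCA, ABCB, ABCC, ABCD, ABCE, ABCF or ABCG followed by a number, with pseudogenes and antisense genes left out. This gave 92 probe sets for 41 genes, out of 54613 non-control probe sets and 19775 genes that have at least 1 such unshared probe set. Genes of the 7 subfamilies without one were not analysed here.

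The arrays were Affymetrix HG-U133 Plus, hybridised with labelled cRNA made from total RNA of SKOV3.ip1 cells, a subline of human SKOV3 ovarian carcinoma that was passaged in the peritoneal cavity of mice. The S116D line was stably transfected with a phosphomimetic PEA-15, in which aspartic acid stands for Ser116, and the S116A line with a nonphosphorylatable PEA-15, in which alanine stands for that serine. PEA-15 is a small cytoplasmic death-effector-domain protein whose binding to ERK and FADD is set by serine phosphorylation. There were 3 arrays of each line. The labels disagree on the S116D form: titles and design text name Ser116, the sample characteristics add Ser104, and the treatment text gives Ser16. Whether each line is 1 clone is not stated, and no array of parental or empty-vector cells was analysed here, so every difference is between the 2 transfected lines. The labels mention no separate cultures for the 3 arrays, and the p-values below rest on an array-to-array spread that may be technical.

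ABC proteins bind and hydrolyse ATP, and most use it to move a substrate across a membrane. ABCB1, the ABCC group and ABCG2 are known in cancer cells as pumps that export cytotoxic drugs or their conjugates, many ABCA and ABCG proteins carry lipids, ABCD proteins serve fatty acid and cobalamin transport in peroxisomes and lysosomes, and ABCE and ABCF proteins have no membrane part and act on ribosomes. In ovarian carcinoma the efflux pumps have been studied mainly for resistance to taxanes, anthracyclines and topoisomerase inhibitors.

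Median log2 signals of the 6 arrays ran from 7.862 to 7.893. Arrays of different lines correlated at r of 0.9866 to 0.9902 over all probe sets, against 0.9951 to 0.9979 within a line. On the second principal component (20.3% of the variance), the arrays S116D 1, S116A 1 and S116A 2 formed a set. The arrays S116D 2, S116D 3 and S116A 3 formed the other. No label names these sets, although same-numbered arrays fell together for replicates 1 and 3 and apart for replicate 2. The sets were read from the values tested here, so p-values below with a block for them may be too small. PEA15, the transfected gene, differed by -0.06 (95% interval -0.26 to 0.14) and -0.19 (-0.36 to -0.02) on its 2 probe sets, with limma adjusted p of 0.82 and 0.20, and whether these probe sets read the transfected transcript is not given in the sources used here. Markers were read by the brightest probe set of each gene and called at a limma adjusted p under 0.05 over all 19775 genes. Of all genes 6.79% were called higher and 5.39% lower. Of 12 markers of SKOV3 and ovarian carcinoma, FOLR1 was called higher in S116D and KRT7, KRT8, KRT18, KRT19, EPCAM and SOX17 were called lower. MUC16, a defining antigen of many ovarian carcinomas, averaged 6.59 in S116D and 6.72 in S116A, near the lower quartile of each array (6.62 to 6.65). PAX8 and ERBB2 averaged 12.82 and 12.63 in S116D and 12.77 and 12.24 in S116A. Of the markers of leukocytes, endothelium, fibroblasts and hepatocytes, 0 of 5, 1 of 5, 0 of 6 and 0 of 5 were called, the 1 being KDR at -0.43. Summed over the list, the ovarian markers ran from 132.3 to 135.7 in S116D and from 137.5 to 140.4 in S116A, and the endothelial markers from 39.0 to 39.6 in S116D and from 39.5 to 40.0 in S116A. The fibroblast markers ran from 48.3 to 48.7 in S116D and from 48.72 to 48.75 in S116A, the hepatocyte markers from 41.4 to 41.6 in S116D and from 40.9 to 41.3 in S116A, and the leukocyte markers from 36.6 to 36.8 in S116D and from 36.2 to 37.0 in S116A. The ovarian and fibroblast sums were lower and the hepatocyte sums higher in S116D without overlap, and the other sums overlapped. Their part in the results below was not tested.

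ABCG2, the breast cancer resistance protein, was 4.06-fold lower in S116D. ABCD4, a lysosomal cobalamin transporter, and ABCA5, a lipid transporter of lysosomes and endosomes, were 1.39-fold and 1.25-fold higher in S116D. The other 89 probe sets did not pass the test, those of the drug pumps ABCB1 and ABCC1 to ABCC5 among them. Here and throughout, a probe set is called higher or lower where limma's adjusted p over all 54613 probe sets is under 0.05, and each difference is S116D minus S116A on the log2 scale. In RNA from whole cultures, fewer cells with a transcript and less transcript per cell cannot be told apart.

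Called members were 2 higher and 1 lower of 92, or 3.26%, against 8.55% of all probe sets, 4.36% higher and 4.19% lower. Of the 92 members, 53 lay at or below the median signal of 7.888. Of the 39 members above it, 2 were called, or 5.13%, against 13.6% of all probe sets above it. The arrays of the lines did not overlap for 12 members that were higher and 11 that were lower in S116D, near the 12.5% and 11.5% of all probe sets, and overlapped for 69. The median difference of the members was -0.01, against 0.003 for all probe sets, and the median size of a difference was 0.0728, against 0.0743. Among probe sets above the median signal, the median size was 0.152 for the members, against 0.115 for all. At an unadjusted p under 0.05, 8 members were higher and 6 lower in S116D, or 15.2%, against 19.7% of all probe sets. Above the median signal these shares were 30.8% of the members and 29.0% of all probe sets. For 84 of the 92 members the whole 95% interval lay within 1.5-fold in either direction, or 91.3% against 88.7% of all probe sets. With each gene taken by its brightest probe set, 2 member genes were called higher and 1 lower of 41, against 6.79% and 5.39% of all genes.

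**Figure D1:**
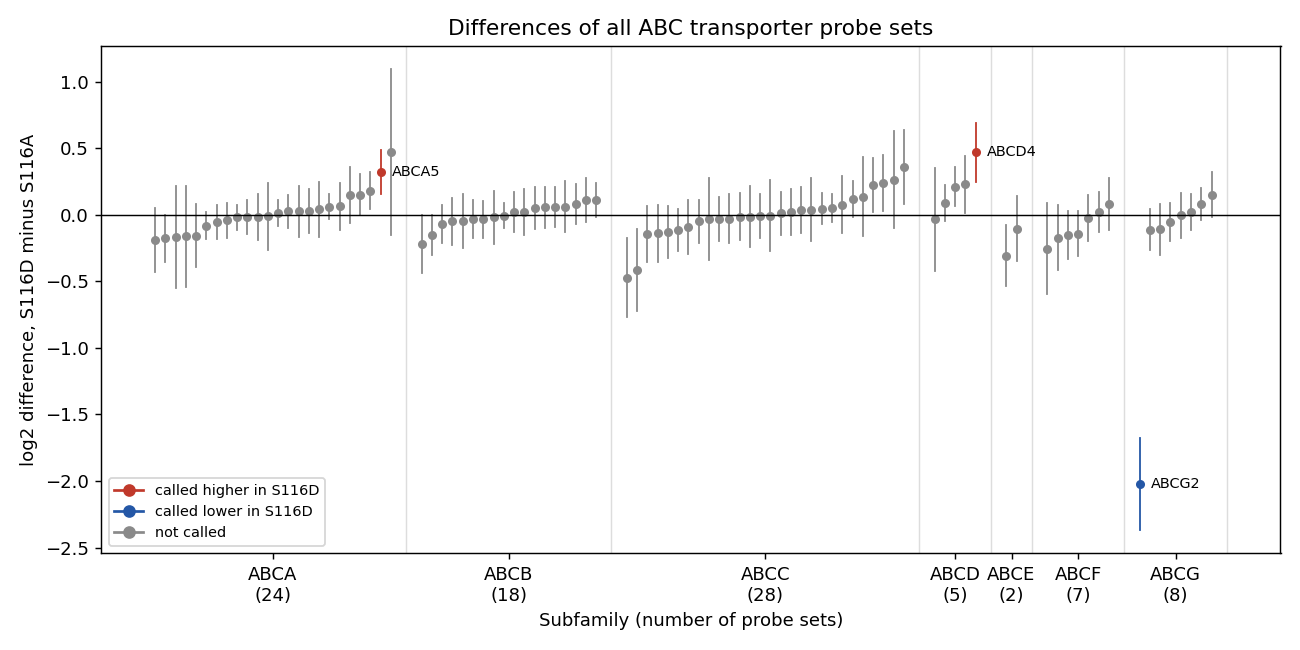
Log2 difference, S116D minus S116A, of each of the 92 ABC transporter probe sets (points) with its 95% interval (lines), sorted by difference within the 7 subfamilies along the x axis. The ABCG2 probe set, at -2.02, is the one member beyond 2-fold, and the called ABCA5 and ABCD4 probe sets lie at 0.32 and 0.47.

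ABCG2 exports topoisomerase inhibitors, several kinase inhibitors and urate, and marks the side population of many tumours. Its promoter is shown because it is the member with the largest difference. RefSeq (GRCh38.p14) gives 5 start windows for it, each from 250 bases before to 50 after a transcript start. The printed window holds more of the motifs searched than 3 of the others, which hold none, and it overlaps the remaining one, which holds the same motifs. Capitals mark the GC box GGGCGG, the E-box CACGTG and the AP-1 site TGACTCA, each searched on both strands. The windows of ABCD4 and ABCA5, the 2 members called higher, are shown beside it.
ABCG2, chr4:88158860-88159159, minus strand: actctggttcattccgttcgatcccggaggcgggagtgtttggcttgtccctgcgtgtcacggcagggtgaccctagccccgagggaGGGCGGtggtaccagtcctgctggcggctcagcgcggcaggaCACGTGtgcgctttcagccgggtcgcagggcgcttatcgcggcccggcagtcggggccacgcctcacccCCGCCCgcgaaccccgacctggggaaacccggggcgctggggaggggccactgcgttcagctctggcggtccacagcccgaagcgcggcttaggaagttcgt
ABCD4, chr14:74302885-74303184, minus strand: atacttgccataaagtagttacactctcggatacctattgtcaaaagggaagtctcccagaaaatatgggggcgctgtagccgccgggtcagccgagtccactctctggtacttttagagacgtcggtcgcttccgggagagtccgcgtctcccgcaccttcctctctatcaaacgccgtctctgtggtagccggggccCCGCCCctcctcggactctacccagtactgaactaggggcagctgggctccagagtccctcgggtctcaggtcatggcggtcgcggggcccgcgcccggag
ABCA5, chr17:69327084-69327383, minus strand: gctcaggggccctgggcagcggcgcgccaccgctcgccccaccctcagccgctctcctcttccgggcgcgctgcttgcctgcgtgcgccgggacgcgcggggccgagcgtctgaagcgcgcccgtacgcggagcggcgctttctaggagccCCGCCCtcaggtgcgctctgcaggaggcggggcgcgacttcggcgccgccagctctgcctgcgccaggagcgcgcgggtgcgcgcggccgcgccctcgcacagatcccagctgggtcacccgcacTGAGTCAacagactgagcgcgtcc
The ABCG2 window held 2 GC boxes and 1 E-box, the ABCD4 window 1 GC box, and the ABCA5 window 1 GC box and 1 AP-1 site. Of all 35116 windows in the table, 45.0% held a GC box, 7.26% an E-box and 4.95% an AP-1 site. Of the 49 windows of the 33 member genes with an entry, 25, 9 and 2 held them. A TATA box (TATAAA) was found in 7 member windows and a CCAAT box in 11, against 11.5% and 34.6% of all windows. The oestrogen response palindrome GGTCANNNTGACC was in 0 of the 49 and in 0.057% of all windows. G and C made up 70.0% of the printed ABCG2 window, 61.0% of the ABCD4 window and 76.3% of the ABCA5 window, against a median of 58.7%. These matches describe the letters of these windows.

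In the ABCG subfamily, ABCG2 read 7.68, 7.36 and 7.68 on the S116D arrays 1 to 3, against 9.74, 9.79 and 9.26 on the S116A arrays. Every S116D array lay well below every S116A array, and the gap of the lines was several times the spread within them. The means were 7.57 ± 0.19 and 9.60 ± 0.29 (SD, n = 3 each), and the difference was -2.02 ± 0.15 (SE; 95% interval -2.37 to -1.67), with a limma adjusted p of 0.00017. ABCG2 is read by a single probe set, 209735_at, so no other probe set bears on it. In S116D its mean lay below the median signal of all probe sets, at 7.888, and in S116A it lay above. Within the sets of arrays on the second component the difference was -2.08 and -1.74.

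The other ABCG genes carry sterols, and none of their 7 probe sets was called. ABCG1, which loads cholesterol onto high-density lipoprotein, differed by -0.05 to 0.08 on its 4 probe sets, all below the median signal. ABCG4, its close relative in brain, differed by 0.15 ± 0.07 (95% interval -0.02 to 0.32; limma adjusted p = 0.32). ABCG5 and ABCG8, the paired sterol exporters of liver and gut, both differed by -0.11, with intervals of -0.30 to 0.08 and -0.26 to 0.04.

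The ABCC subfamily holds the multidrug resistance proteins, which export drugs and their glutathione, glucuronide or sulfate conjugates, and the sulfonylurea receptors. None of its 28 probe sets for 10 genes was called, and its median difference was -0.01, with a range of -0.47 to 0.36. At an unadjusted p under 0.05 there were 3 higher and 2 lower, or 17.9% against 19.7% of all probe sets, and 15 of the 28 lay above the median signal. For 24 of the 28 the 95% interval lay within 1.5-fold.

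ABCC1, the pump first named multidrug resistance protein, came nearest to a call in the subfamily. Its probe set 202804_at read 11.19, 10.97 and 10.89 on the S116D arrays, against 11.49, 11.72 and 11.26 on the S116A arrays. The difference was -0.47 ± 0.13 (SE; 95% interval -0.77 to -0.18), with a limma adjusted p of 0.062. Its other probe set, 202805_s_at, read 8.50, 8.48 and 8.13 in S116D, against 8.88, 8.92 and 8.54 in S116A. That difference was -0.41 ± 0.14 (SE; 95% interval -0.72 to -0.10; limma adjusted p = 0.11). On both probe sets the lines did not overlap, although on 202805_s_at S116D 1 and S116A 3 came close. Leaving out S116A 3 took both probe sets past the threshold, at -0.59 and -0.53 with adjusted p of 0.023 and 0.037. Leaving out S116D 1 took 202804_at past it, at -0.56 with 0.039, and not 202805_s_at, at 0.097. Without S116A 1, S116A 2, S116D 2 or S116D 3 neither was called, at adjusted p of 0.17 to 0.32. Ordinary t statistics gave adjusted p of 0.27 and 0.36. Probe set 202804_at was called lower with a block for the sets of arrays, at -0.37 with an adjusted p of 0.0093, and 202805_s_at was not, at -0.32 with 0.067.

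ABCC2, the apical conjugate pump of liver, differed by -0.11 ± 0.07 (95% interval -0.27 to 0.05; limma adjusted p = 0.48). ABCC3, its basolateral counterpart, had 5 probe sets, of which 208161_s_at differed by 0.26 ± 0.16 (95% interval -0.10 to 0.63; limma adjusted p = 0.45) and the other 4 by -0.05 to -0.01. Probe set 208161_s_at was called higher with a block for the sets of arrays, at 0.39 with an adjusted p of 0.034. All 4 probe sets of ABCC4, which exports cyclic nucleotides, prostaglandins and nucleoside analogues, averaged higher in S116D, by 0.08, 0.24, 0.22 and 0.12. Probe set 1554918_a_at of ABCC4 read 10.53, 10.40 and 10.55 in S116D, against 10.28, 10.12 and 10.38 in S116A, and 1555039_a_at read 9.19, 9.15 and 9.28 in S116D, against 9.07, 8.83 and 9.05 in S116A. On these 2 of the 4 the lines did not overlap, and the limma adjusted p was 0.19 and 0.20.

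The probe sets of ABCC5, a pump of cyclic nucleotides and nucleotide analogues, pointed in different directions. Probe set 226363_at read 8.06, 8.58 and 8.23 in S116D, against 7.86, 7.96 and 7.97 in S116A, a difference of 0.36 ± 0.12 (95% interval 0.08 to 0.64; limma adjusted p = 0.13). The other 2, 209380_s_at and 1558460_at, differed by -0.14 ± 0.09 and -0.09 ± 0.09, with limma adjusted p of 0.53 and 0.71. Without S116D 1 the difference of 226363_at was 0.48, with an adjusted p of 0.037. ABCC10, which exports taxanes, differed by 0.14 and -0.01, and ABCC11, a pump of apocrine glands, by 0.01 and -0.13. ABCC8 and ABCC9, the sulfonylurea receptors of potassium channels, differed by -0.14 to 0.05 over their 7 probe sets, and ABCC12 by -0.01 and 0.04.

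The ABCB subfamily joins drug and bile pumps of the plasma membrane with transporters of mitochondria and lysosomes. None of its 18 probe sets for 8 genes was called, the differences ran from -0.22 to 0.11, and all 18 intervals lay within 1.5-fold. Of the 18, 4 lay above the median signal. Intervals lay within 1.5-fold for 88.7% of all probe sets and 80.8% of those above the median signal. They did so for all 53 members at or below it. At an unadjusted p under 0.05 there were 0 higher and 2 lower, or 11.1% against 19.7% of all probe sets. ABCB1, the P-glycoprotein that exports taxanes and anthracyclines, read 7.28, 7.17 and 7.30 in S116D on 243951_at, against 7.09, 7.25 and 7.16 in S116A, and 5.36, 5.57 and 5.50 in S116D on 209993_at, against 5.53, 5.58 and 5.53 in S116A. The lines overlapped on both, and both lay below the median signal. The differences were 0.08 ± 0.07 (95% interval -0.07 to 0.24) and -0.07 ± 0.06 (-0.21 to 0.07), with limma adjusted p of 0.61 and 0.67.

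ABCB4, the phosphatidylcholine flippase of bile canaliculi, differed by 0.06 and -0.05, ABCB5, reported in melanoma, by -0.03 to 0.05 over 4 probe sets, and ABCB11, the bile salt export pump, by 0.11 and 0.02. Of these 8 probe sets 7 lay below the median signal. ABCB10, a mitochondrial transporter with a part in haem synthesis, read 10.43, 10.28 and 10.52 in S116D, against 10.62, 10.52 and 10.75 in S116A. Its difference was -0.22 ± 0.10 (95% interval -0.44 to -0.00; limma adjusted p = 0.25), and the highest S116D array met the lowest S116A array. ABCB8, also of mitochondria, read 8.49, 8.51 and 8.44 in S116D on 229539_at, against 8.64, 8.64 and 8.62 in S116A, without overlap, at -0.15 ± 0.06 (limma adjusted p = 0.24). Its other probe set differed by -0.02. ABCB6, a porphyrin transporter, differed by 0.06 and -0.05, and ABCB9, a peptide transporter of lysosomes, by 0.11, 0.06 and -0.03.

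The ABCA subfamily, whose proteins carry sterols and phospholipids, had 1 of 24 probe sets called, for 11 genes. That was 4.17%, against 8.55% of all probe sets. At an unadjusted p under 0.05 there were 2 higher and 0 lower, or 8.33% against 19.7% of all probe sets. The median difference of the subfamily was 0.00 and its range -0.19 to 0.47. Of the 24 probe sets, 6 lay above the median signal, so most of them read weak signals. ABCA5 was called on 213353_at, with 7.54, 7.56 and 7.63 in S116D, against 7.15, 7.36 and 7.25 in S116A. The 3 S116D arrays were above all S116A arrays. The means were 7.58 ± 0.05 and 7.25 ± 0.11 (SD, n = 3 each), and the difference was 0.32 ± 0.07 (SE; 95% interval 0.16 to 0.49), with a limma adjusted p of 0.026. On its other probe set, 241705_at, S116D read 5.21, 5.55 and 5.44 and S116A 5.34, 5.30 and 5.12, which overlapped, at a difference of 0.15 ± 0.09 (limma adjusted p = 0.47). The call on 213353_at was lost without S116D 2, S116D 3, S116A 1 or S116A 3, at adjusted p up to 0.10.

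ABCA1, the cholesterol exporter that forms high-density lipoprotein, differed by -0.16, -0.16, -0.01 and -0.05 on its 4 probe sets, all with overlap. On the brightest, 203505_at, S116D read 11.37, 10.99 and 11.26, against 11.37, 11.35 and 11.37 in S116A. ABCA2, a lysosomal transporter linked to estramustine resistance, differed by -0.16, 0.04 and -0.19, with limma adjusted p of 0.40 or above. ABCA3, the surfactant phospholipid transporter of lung, read 9.72, 8.70 and 8.86 in S116D, against 8.90, 8.75 and 8.20 in S116A. S116D 1 was far above the other arrays of its line and S116A 3 below those of its own, and the difference was 0.47 ± 0.27 (95% interval -0.15 to 1.10; limma adjusted p = 0.42). With a block for the sets of arrays, the difference of ABCA3 was 0.74 ± 0.09 and its adjusted p 6.3e-04. Those sets were read from the same values, so this adjusted p may be too small. Of the rest, chosen for naming after their values were seen, ABCA6, ABCA4, ABCA9, ABCA12 and ABCA13 did not overlap between lines on 1 probe set each. They differed by 0.18, -0.18, 0.15, -0.08 and 0.06, with limma adjusted p of 0.12, 0.26, 0.26, 0.41 and 0.49. With ABCA5 counted, 4 of the 24 probe sets were higher and 2 lower without overlap, against 12.5% and 11.5% of all probe sets. These probe sets of ABCA12 and ABCA13 averaged 5.08 and 4.59, below the lower quartile of each array.

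The ABCD subfamily proteins serve very long chain fatty acids in peroxisomes and cobalamin in lysosomes. Of its 5 probe sets for 3 genes 1 was called, and 4 of the 5 lay above the median signal. Of all probe sets 8.55% were called, and of those above the median signal 13.6%. At an unadjusted p under 0.05 there were 3 higher and 0 lower in the subfamily. These shares were 19.7% of all probe sets and 29.0% of those above the median signal. The subfamily's median difference of 0.21 was the highest of the 7, as a description of few probe sets. ABCD4 on 203981_s_at read 9.71, 9.63 and 9.56 in S116D, against 9.20, 9.30 and 8.99 in S116A. The means were 9.63 ± 0.07 and 9.16 ± 0.16 (SD, n = 3 each), and the difference was 0.47 ± 0.10 (SE; 95% interval 0.25 to 0.69), with a limma adjusted p of 0.019. Its other probe set, 203982_s_at, read 8.45, 8.45 and 8.55 in S116D, against 8.17, 8.14 and 8.45 in S116A, at 0.23 ± 0.09 (95% interval 0.02 to 0.45; limma adjusted p = 0.21). Both ABCD4 probe sets were higher in S116D without overlap, although on 203982_s_at S116A 3 came close to the S116D arrays. Both identifiers end in _s_at, so these probe sets may read several transcripts. Neither was tested where such probe sets were left out. The call was lost without S116D 2, S116D 3 or S116A 1, at adjusted p up to 0.075, and within the sets of arrays the difference was 0.46 and 0.60.

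ABCD3, an abundant protein of the peroxisome membrane, read 13.40, 13.46 and 13.42 in S116D on 202850_at, against 13.28, 13.14 and 13.25 in S116A. The lines did not overlap, and the difference was 0.21 ± 0.06 (95% interval 0.06 to 0.36; limma adjusted p = 0.089). It was called higher with a block for the sets of arrays (0.20, adjusted p = 0.039), with quantile normalization (0.25, 0.036), with array weights (0.22, 0.0499) and where dimmer probe sets were left out at the median signal (0.21, 0.044). On its other probe set S116D read 10.73, 10.77 and 11.15, against 11.08, 10.56 and 11.11 in S116A, with overlap and a difference of -0.03. ABCD2, a relative active in fat and brain, differed by 0.09 at a weak signal.

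ABCE1, which splits ribosomes after termination, and the ABCF proteins, which act in translation initiation and its control, had 0 of 9 probe sets called, with 8 of the 9 above the median signal. At an unadjusted p under 0.05 there was 1 of the 9, an ABCE1 probe set that was lower in S116D, against 19.7% of all probe sets. ABCE1 on 201873_s_at read 11.71, 11.91 and 12.00 in S116D, against 12.12, 12.10 and 12.33 in S116A, at -0.31 ± 0.10 (95% interval -0.53 to -0.08; limma adjusted p = 0.11). On 201872_s_at the lines overlapped, at 11.90, 12.14 and 12.16 in S116D and 12.18, 12.00 and 12.33 in S116A, and the difference was -0.10 ± 0.11. With a block for the sets of arrays the difference on 201873_s_at was -0.38, with an adjusted p of 0.0014.

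ABCF1 read 11.73, 11.33 and 11.22 in S116D, against 11.86, 11.72 and 11.46 in S116A, at -0.25 ± 0.15 (95% interval -0.59 to 0.09; limma adjusted p = 0.44). ABCF2 had 5 probe sets, of which 209247_s_at and 207622_s_at were lower in S116D without overlap, at -0.14 and -0.15 with an adjusted p of 0.36 each, and the other 3 differed by -0.02 to 0.08. ABCF2 shares exons with a read-through transcript, so its probe sets may read both. ABCF3 differed by -0.17 ± 0.11 (limma adjusted p = 0.47). The median over the 7 ABCF probe sets was -0.14, with no member past the threshold.

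**Figure D2:**
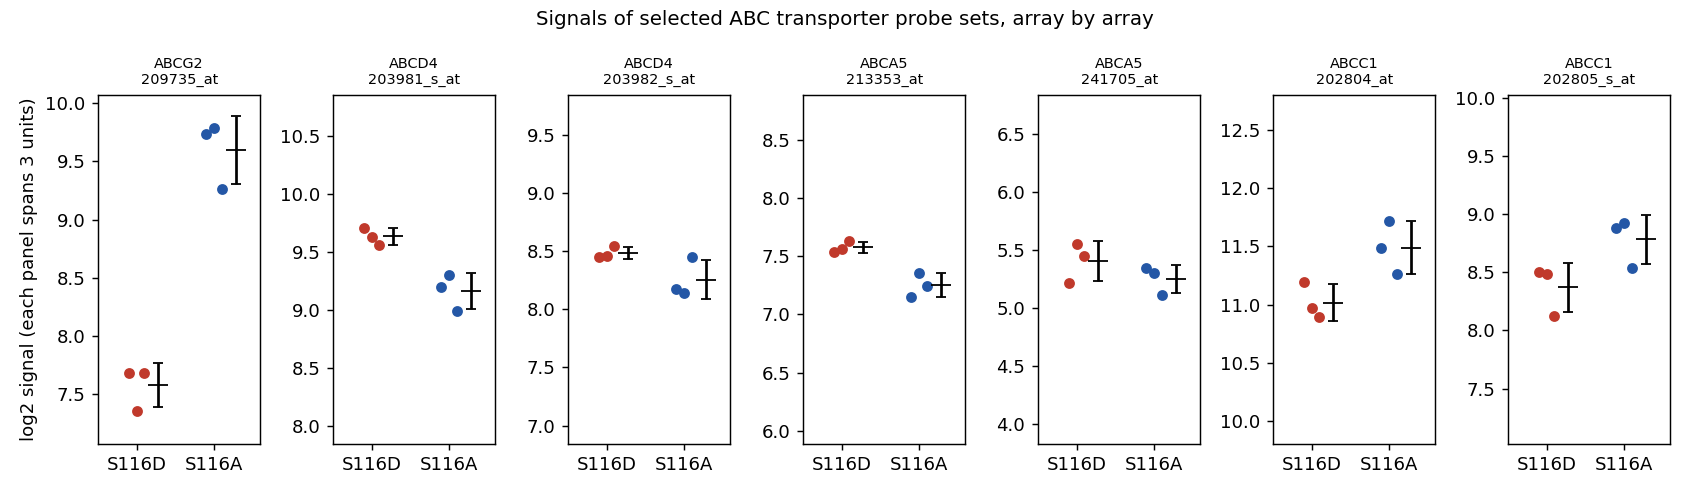
Log2 signal on each array (points) in S116D and S116A for the probe sets of ABCG2, ABCD4, ABCA5 and ABCC1, with the mean and SD beside them (n = 3 each). Each y axis spans the same length, and ABCG2 shows the widest gap, at means of 7.57 in S116D and 9.60 in S116A.

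Probe sets of the same gene did not always point the same way. Of the 28 member genes with more than 1 probe set, 4 were higher in S116D on all of them, 4 were lower on all, and 20 were higher on some and lower on others. Higher throughout were ABCC4, ABCD4, ABCA5 and ABCB11, and lower throughout were ABCC1, ABCE1, ABCA1 and ABCB8. The remaining 13 genes, ABCG2 among them, rested on 1 probe set.

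The call of ABCG2 held under each of the 15 alternative settings run, with differences of -2.19 to -1.91 and a highest adjusted p of 0.041, from ordinary t statistics without moderation. The ABCD4 and ABCA5 calls did not hold under ordinary t statistics, at an adjusted p of 0.13 each. The share of members called was below that of all probe sets under each setting run.

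**Figure D3:**
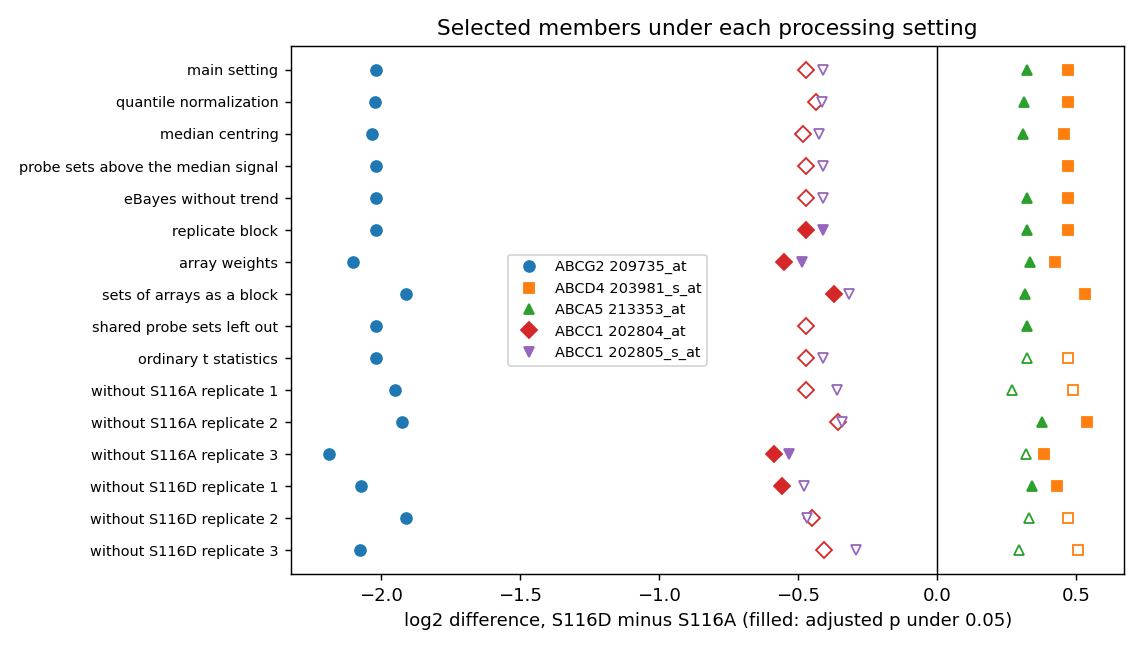
Log2 difference, S116D minus S116A, of 5 probe sets (symbols) under each processing setting (rows), filled where the adjusted p is under 0.05. ABCG2 stays between -2.19 and -1.91 and is filled throughout, whereas ABCD4, ABCA5 and both ABCC1 probe sets are filled in some settings and open in others.

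Beside the family, lists of related genes were read in the same comparison, each gene by its brightest probe set. The adjusted p was taken over all 19775 genes, whose median difference was 0.01. Of all genes 6.79% were called higher and 5.39% lower, 2407 in number. That number was 4411 with the block for the sets of arrays, 948 with ordinary t statistics and 1447 to 2593 with an array left out. It was 1920 of 17098 with shared probe sets left out and 2246 where an unshared probe set was preferred. List counts under these settings are to be read against these numbers. ABC genes under other symbols were TAP1, TAP2 and CFTR. TAP1, which with TAP2 carries peptides into the endoplasmic reticulum for presentation on HLA class I, read 10.87, 10.45 and 10.35 in S116D, against 9.34, 9.49 and 9.02 in S116A. It was higher by 1.27 ± 0.16 (limma adjusted p = 0.0017), a 2.42-fold difference with no overlap. TAP2 was higher by 0.48 ± 0.10 (limma adjusted p = 0.021), and CFTR, the chloride channel, differed by 0.10 ± 0.06 (limma adjusted p = 0.39). The TAP2 call was lost without S116D 3, S116A 1 or S116A 2, which left 1 call in the list, and neither gene was called under ordinary t statistics, at adjusted p of 0.061 for TAP1 and 0.11 for TAP2.

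Drug uptake and platinum transport genes had 3 of 28 called higher and 2 called lower in S116D, with a median of 0.05. ATP7A, a copper pump linked to cisplatin export, was higher by 0.51 ± 0.07 (limma adjusted p = 0.0035), SLC31A2, a copper transporter, by 0.47 ± 0.10 (0.015), and SLC22A4, a carnitine and cation transporter, by 0.27 ± 0.07 (0.048). SLCO1B3, a hepatic uptake transporter that takes up taxanes, fell by 0.60 (limma adjusted p = 0.011), and SLC29A3, a lysosomal nucleoside transporter, fell by 0.41 (0.047). SLC31A1, the main copper and platinum importer, differed by 0.05, and ATP7B by -0.15, with adjusted p of 0.77 and 0.61. Over all probe sets, ATP7A, SLC31A2 and SLCO1B3 were called too and SLC22A4 and SLC29A3 were not. With a block for the sets of arrays 5 were called higher and 2 lower, and with shared probe sets left out 1 of 24 was called higher and 2 lower. The counts varied with the arrays used, at 1 higher and 1 lower without S116D 2, 1 higher and 0 lower without S116A 1, 2 higher and 1 lower without S116D 3 or without S116A 2, 4 higher and 1 lower without S116D 1, and 2 of each without S116A 3.

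Genes of drug oxidation and conjugation, whose enzymes include makers of the conjugates that ABCC pumps export, had 10 of 29 called higher. None was called lower, and the median was 0.12. GSTM3, a glutathione transferase, read 11.04, 10.97 and 10.85 in S116D, against 8.98, 8.90 and 8.63 in S116A, and was 4.33-fold higher (limma adjusted p = 1.7e-05) on 1 of its 2 probe sets. UGT1A6, a glucuronosyltransferase, read 9.68, 9.69 and 9.76 in S116D, against 7.67, 7.81 and 7.63 in S116A, and was 4.03-fold higher (limma adjusted p = 3.1e-06). UGT1A genes share their last exons, so this probe set may read several of them. The membrane transferases MGST1 and MGST3 were higher by 1.04 and 0.51 (limma adjusted p = 0.00016 and 0.0031). The other 6 were GSTP1, GSTK1, GSTZ1, GSTA4, GSTT1 and CYP2J2, at 0.29 to 0.40 and adjusted p of 0.011 to 0.050. Of the 10, 7 were also called over all probe sets. The count was 4 without S116D 2 or without S116A 1, 5 without S116D 3, 6 without S116A 2 or without S116A 3, and 9 without S116D 1. With a block for the sets of arrays 13 were called higher and 0 lower. The count was 5 of 29 where an unshared probe set was preferred for each gene, and 5 of 19 with shared probe sets left out. NQO1, a quinone reductase, differed by 0.07 (limma adjusted p = 0.69).

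Regulators of ABC transporter genes had 3 of 18 called, all lower in S116D, with a median of -0.05. ESR1, the oestrogen receptor, fell by 3.35 on 1 of its 9 probe sets, the brightest, which read 7.68, 7.22 and 7.29 in S116D, against 10.84, 11.08 and 10.32 in S116A (limma adjusted p = 3.4e-05). PPARG, a lipid-sensing nuclear receptor, read 9.00, 8.98 and 8.89 in S116D, against 10.02, 9.95 and 9.87 in S116A, and fell by 0.99 (limma adjusted p = 0.00014). HSF1, the heat shock factor, fell by 0.65 (limma adjusted p = 0.015) on 1 of its 2 probe sets, a call that was lost without S116D 2, S116D 3, S116A 1 or S116A 2. AHR, the aryl hydrocarbon receptor, differed by -0.28 (limma adjusted p = 0.16), and NFE2L2, the oxidative stress factor, by -0.04 (0.81). The list had 2 called higher and 3 lower with a block for the sets of arrays. The part of these differences in the ABCG2 difference was not tested.

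Peroxisome genes, the setting of ABCD proteins, had 5 of 19 called higher and 0 lower, with a median of 0.07. SLC27A2, a very long chain acyl-CoA synthetase, read 8.58, 8.47 and 8.57 in S116D, against 6.81, 7.00 and 6.76 in S116A, and was 3.21-fold higher (limma adjusted p = 9.5e-06). HSD17B4, ACAA1 and ACOX3, enzymes of peroxisomal beta-oxidation, were higher by 0.87, 0.60 and 0.33 (limma adjusted p = 0.00018, 0.0026 and 0.047), and PEX7, an import receptor, by 0.48 (0.0064). The ACOX3 call was lost without any 1 of the 6 arrays, at adjusted p of 0.078 to 0.13, which left the other 4, and 8 of the 19 were called higher with a block for the sets of arrays. Cholesterol and phospholipid handling had 2 of 20 called higher and 0 lower, SC5D, an enzyme of cholesterol synthesis, at 1.05 and NPC2, a lysosomal cholesterol carrier, at 0.65, with a median of 0.03. The block for the sets of arrays gave 7 of the 20 called higher, IDI1, STARD4, DHCR7, INSIG1 and STARD3 beside these. Mitochondrial iron-sulfur and haem genes had 1 of 17 called higher, ISCA2 at 0.49, and 1 lower, LYRM4 at -0.54, with a median of -0.02, and the ISCA2 call was lost without S116D 2, S116D 3, S116A 1 or S116A 2. With the block 1 was called higher and 3 lower. Ribosome recycling and translation quality control genes, the setting of ABCE1, had 0 of 19 called by limma, with a median of -0.04. At an unadjusted p under 0.05 there were 0 higher and 4 lower, against 12.8% and 11.2% of all genes. Of this list 4 were called lower with shared probe sets left out (of 17), and 4 where an unshared probe set was preferred, EIF1, EIF2S2, GSPT1 and ZNF598 in both. The block for the sets gave 4 called lower and 1, EIF2AK4, higher, and without S116D 1 or without S116A 2 there was 1 lower.

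**Figure D4:**
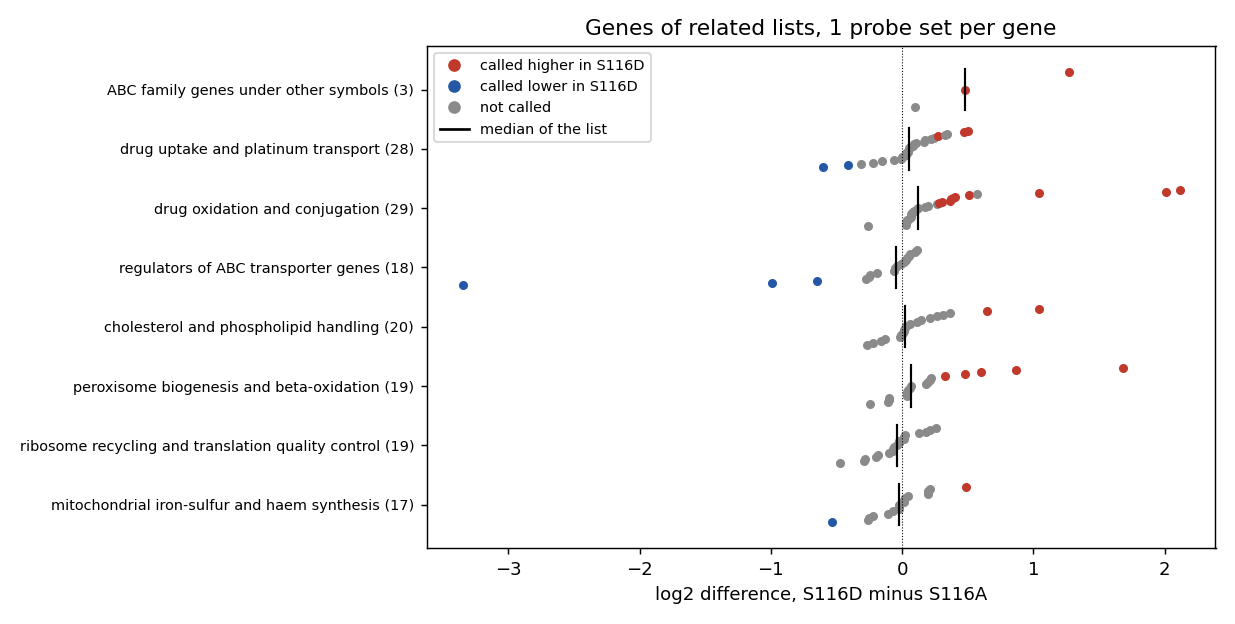
Log2 difference, S116D minus S116A, of each gene (points) in the 8 related lists (rows, with the number of genes measured), coloured by call, with the list median as a bar. Red points reach 2.01 and 2.12 among the conjugation genes and 1.68 among the peroxisome genes, and the lowest blue point is ESR1, at -3.35.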

How the data were processed

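Per the labels, biotin-labelled cRNA made from total RNA was read on Affymetrix HG-U133 Plus arrays. The authors deposited 1 value per probe set and array, and the values were taken as log2 signals because they ran from 4.336 to 15.33 with nearly equal array medians. Per the submitters' processing notes, MAS5 and RMA were used, and which of them made the deposited values, with what version, is not given in the sources used here. No detection calls were used. The number of arrays, 3 per line, limited the precision.

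Control probe sets (62) were left out. GEO's platform annotation, with symbols updated through RefSeq (GRCh38.p14), named 1 gene for 41091 probe sets, several for 1801 and none for 11721. Of the 41091, 41037 were found in RefSeq. Of the ABC-named probe sets, 7 of pseudogenes and 2 shared with another gene were left out.

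Lines were taken from the titles and compared in R 4.3.3 with limma 3.58.1, using lmFit and a moderated test with intensity trend (eBayes), two-sided, with no covariate and Benjamini-Hochberg adjustment over all 54613 probe sets or, for 1 probe set per gene, over 19775 genes. SEs are moderated. The procedure was tested on simulated data with fewer changed probe sets than were called here. It recovered 50% of log2 changes of 0.5, 86% of 1.0 and 100% of 2.0, so a member not called may still differ. With 3 against 3 arrays the smallest exact permutation p is 0.1, and that test was not used. The members, lists and markers were chosen with earlier results of these data known. Named were all called members, the drug efflux, sterol, mitochondrial, peroxisomal and ribosomal members whatever their values, the brightest gene of each subfamily, PEA15, and up to 4 called genes of each list, with others added after their values were seen. Same-numbered arrays were not taken as pairs, because the labels name no pairing. Their deviations from the line means correlated at 0.45, -0.04 and 0.44 for replicates 1 to 3, which does not settle whether they are pairs. Alternatives were array weights, quantile normalization, a filter at the median signal, median centring, a block for the replicate number, a test without the trend, the sets of arrays on the second component as a block, leaving out probe sets that may read several transcripts (identifiers ending in _s_at or _x_at), ordinary t statistics, other probe sets per gene, and leaving out each array.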

Additional observations from a re-analysis of the deposited data

How the results depend on the processing

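The main counts were 2 member probe sets called higher and 1 lower in S116D, 3 member genes called, and 4672 probe sets called in all. Member probe sets called higher numbered 5 with a block for the sets of arrays, 1 without shared probe sets and 0 with ordinary t statistics, and 0 to 3 when each array was left out in turn. Member probe sets called lower numbered 4 with the replicate block, 3 with array weights and 3 with the sets as a block, and 1 to 3 with an array left out. Member genes called numbered 6 with the replicate block, 6 with array weights and 7 with the sets as a block, and 1 to 5 with an array left out. All probe sets called numbered 7340 with the replicate block, 8099 with the sets as a block, 2947 without shared probe sets, of fewer tested, and 1026 with ordinary t statistics, and 2608 to 4674 with an array left out. The cause of these shifts was not tested, apart from the fewer probe sets or arrays. The share of members called stayed below that of all probe sets under each setting, at 7.61% against 13.4% with the replicate block and 8.70% against 14.8% with the sets as a block. In fits over probe sets, 429 values were recomputed for 30 member probe sets, the 26 named by rule and 4 others called under some setting. Of these values 0 changed direction while called, and 19 gained and 9 lost a call. In the same fits 81 of the 92 members were called under no setting. With 1 probe set per gene, 3 of those 81 were called. These were ABCB8 with ordinary t statistics (adjusted p = 0.042), ABCF1 with the replicate block (limma, 0.049), and ABCA6 with array weights (limma, 0.027) and without S116D 1 (limma, 0.038). With the replicate block the ABCC1 probe sets were called at adjusted p of 0.015 and 0.0065, ABCE1 201873_s_at at 0.022 and ABCC5 226363_at at 0.040, and array weights gave 0.015 and 0.044 for ABCC1. In the related lists, the replicate block called 5 drug uptake genes higher, 4 cholesterol genes higher and 3 ribosome genes lower, and ordinary t statistics called 1 drug uptake gene, 6 conjugation genes and 0 iron-sulfur and haem genes. Array weights called 5 regulators and 2 ribosome genes lower. Among the conjugation genes, the replicate block called 12 higher and 0 lower, and array weights 13 higher and 1 lower. Of all 19775 genes the replicate block called 3892, ordinary t statistics 948 and array weights 3681, against 2407 in the main fit. Whether same-numbered arrays are pairs is not settled, so the counts with the replicate block are given only here. With the median over the probe sets of a gene, ABCD4 and ABCG2 were called and ABCA5 was not. Dim signals limit what can be said of the 28 member probe sets below the lower quartile. Settings for linear values were planned and not run, because the values are on the log2 scale.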

Other observations

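ABC-named probe sets outside the family rule gave no call. ABCA17P, a pseudogene next to ABCA3 on chromosome 16, averaged 9.11 in S116D and 8.67 in S116A, without overlap, a difference of 0.44 ± 0.12 (SE, n = 3 each) with a limma adjusted p of 0.066. ABCA3 itself differed by 0.47, as given above. ABCC13, a pseudogene in RefSeq, had 4 probe sets that differed by 0.00 to 0.23, with limma adjusted p of 0.24 or above. ABCA11P and ABCC6P1 differed by 0.07 and -0.02, and the 2 shared probe sets by -0.17 and 0.06.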
